A study of Mus musculus with 9 samples.

Results

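The stefin A cluster and related cystatins were examined in neutrophils from the lungs of mice with and without breast cancer metastasis. The members were the genes whose symbol started with Stfa or Cstdc, or was Cstb or BC100530, and that had values in the deposited tables. This rule found 11 rows, of which Cstdc1 was blank, and no row carried the symbol BC100530, so that 10 genes of the 18325 with values were described. The genes were selected on their symbols and on having values, and interest in them came from the level of Stfa3 in Ly6Glow neutrophils of metastatic lung relative to normal lung, which is therefore given as a description.

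Stefins are small cystatins that stay inside the cell, since they lack a signal peptide. They bind papain-like cysteine proteases, such as cathepsins B, H, L and S, tightly but reversibly, and so limit proteolysis by enzymes that leak from lysosomes or are taken up. The human genome has a single stefin A gene, while in mice the gene was copied into a cluster whose members are abundant in neutrophils. Stefin B, made by Cstb, is found in most cell types.

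Ly6Ghigh and Ly6Glow neutrophils were sorted from the lungs of female BALB/c mice that carried macrometastases after 4T1-LM3 cells had been injected into the mammary fat pad (groups Ly6Ghi and Ly6Glow). Ly6Ghigh neutrophils from the normal lung of female BALB/c mice made the NL group. 4T1-LM3 is a line derived from the mouse mammary carcinoma line 4T1 by repeated selection for growth in the lung, and the mice carried no engineered allele according to the labels. Each group had 3 libraries, with 15267177 to 17841807 estimated counts per library. The labels give no age per sample and do not say whether a library came from 1 mouse or from several. The description field of the NL libraries names the Ly6Ghigh group alone, so that normal lung rests on their title and treatment fields. NL replicate 2 stood apart from the other NL libraries, with a chi-square per gene of 5.33 and 4.07 against them, compared with 1.47 between those and 1.39 to 2.41 within the other groups.

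The mRNA of Ly6g, the surface protein the groups are named for, was not lower in the Ly6Glow libraries on the scale used for the comparisons. It was at 380, 361 and 380 CPM in Ly6Ghi, at 385, 403 and 394 CPM in Ly6Glow and at 120, 120 and 118 CPM in NL (CPM being counts scaled to a common library size). The difference of Ly6Glow over Ly6Ghi was 0.076 on the log2 scale (edgeR adjusted p = 0.0577) and -0.16 on log2(FPKM + 1), so that the mRNA gives no direction that holds on both scales. Surface protein was not measured in these files, and the groups are called by their labels.

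Of the 10 members, 8 lay within 298.582 kb of chromosome 16 (mm10, chr16:36156811-36455392). From the lower coordinate they were Stfa2l1 (NCBI Gene 268885), Cstdc4 (433016), Stfa1 (20861), Cstdc3 (209324), Cstdc6 (100038854), Cstdc5 (100034684), Stfa2 (20862) and Stfa3 (20863). Cstb (13014) lay at chr10:78425670-78427622. Cstdc2 (77705) lay at chr2:148844620-148850962, away from the stefins. Csta3, Csta2 and Gm7260 lay within the same stretch of chromosome 16 but outside the naming rule.

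The bases just before the start of the cluster genes are shown because genes with very unlike estimated levels shared them. RefSeq promoter windows on GRCm38.p6, which is mm10, matched 8 of the 10 members, and Cstb and Cstdc6 had none. The 120 bases that end at the base before the annotated start are written from 5′ to 3′ on the strand of the gene, with GAGGAGGAG and TTTAAAACC in capitals. Both strings were picked after the sequences had been seen.
Stfa2l1, chr16:36156691-36156810, plus strand: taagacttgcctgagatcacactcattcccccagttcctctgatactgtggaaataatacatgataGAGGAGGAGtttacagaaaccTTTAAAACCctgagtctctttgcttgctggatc
Cstdc4, chr16:36184092-36184211, plus strand: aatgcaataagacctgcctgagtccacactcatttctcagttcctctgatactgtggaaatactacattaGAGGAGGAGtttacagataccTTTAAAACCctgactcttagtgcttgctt
Stfa1, chr16:36277028-36277147, plus strand: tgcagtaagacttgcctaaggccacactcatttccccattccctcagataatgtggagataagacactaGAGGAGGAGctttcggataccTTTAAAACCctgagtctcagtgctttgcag
Cstdc3, second annotated start, chr16:36307900-36308019, plus strand: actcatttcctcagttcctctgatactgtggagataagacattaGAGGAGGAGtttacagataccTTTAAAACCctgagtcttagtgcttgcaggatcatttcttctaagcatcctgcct
Cstdc5, chr16:36367571-36367690, minus strand: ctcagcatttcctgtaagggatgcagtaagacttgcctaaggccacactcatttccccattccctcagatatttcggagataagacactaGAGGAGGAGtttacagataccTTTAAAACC
Stfa2, chr16:36408364-36408483, minus strand: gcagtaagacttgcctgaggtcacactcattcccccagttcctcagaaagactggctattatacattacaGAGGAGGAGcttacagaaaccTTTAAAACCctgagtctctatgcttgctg
Stfa3, chr16:36455393-36455512, minus strand: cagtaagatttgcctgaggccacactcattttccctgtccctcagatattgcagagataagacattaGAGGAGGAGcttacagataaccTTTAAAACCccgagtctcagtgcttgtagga

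All 7 of these windows held both strings in the same order, with TTTAAAACC beginning 9 bases before the annotated start in Cstdc5 and 55 bases before it in Cstdc3. In the other 5 it began 29 to 33 bases before the start. The first annotated start of Cstdc3 and the start of Cstdc2 held neither string. When 250 bases before each annotated start were searched on both strands, TTTAAAACC was found in 7 of 8 cluster windows and in 0.344% of 32851 windows of all genes. GAGGAGGAG was found in 7 of 8 cluster windows and in 2.75% of all windows. The core of GATA sites, AGATAA, was found in 4 of 8 cluster windows against 9.99% of all, the ETS core GGAAGT in 2 of 8 against 19.7%, and the C/EBP pattern TTNNGNAA in 7 of 8 against 36.8%. The windows resemble each other throughout, as Stfa1 and Cstdc5 were 93.9% identical over 99 aligned bases, so that these shares describe a family of copies.

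Read sharing could split counts among the copies. In GENCODE transcripts, Cstdc5 and Stfa1 were 96.93% identical over 618 bases, and Stfa2 and Stfa2l1 were 96.46% identical over 367 bases. No stretch of 150 bases, the length of 1 read, was shared exactly by a member and another gene. Stretches of 50 bases were shared over 35.62% of Cstdc4, 33.73% of Cstdc6, 33.51% of Cstdc5, 26.94% of Stfa1, 24.59% of Stfa2l1 and 15.88% of Stfa2, whereas Stfa3 shared none. Of the 72 estimated counts of the cluster, 6 (8.33%) were whole numbers, against 37.9% of all values (within 1e-09 of a whole number). All 6 were counts of 0, in Stfa1 and Cstdc3, so that no cluster count above 0 was whole. The 37.9% also includes counts of 0. The levels of single cluster genes are therefore uncertain, and the reference strain is not BALB/c. This includes Stfa3, which shared no exact stretch but whose counts were not whole either, such as 7782.97 in Ly6Ghi replicate 1.

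The stefin A cluster was among the most abundant transcripts of the neutrophils from metastatic lung. By mean FPKM, which is scaled for transcript length, Cstdc5 was highest in Ly6Ghi, at 4263 ± 146 (SD, n = 3), rank 9 of all genes. Stfa2 followed at 3243 ± 63.8 (rank 15), Cstdc4 at 2118 ± 11.4 (rank 19), Stfa2l1 at 1960 ± 95.0 (rank 23), Stfa3 at 1238 ± 69.7 (rank 43) and Cstdc6 at 941 ± 23.5 (rank 60). Neighbours in this order did not overlap between libraries. Stefin B was far below them, with Cstb at 83.2 ± 4.03 FPKM (rank 861).

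In Ly6Glow, Cstdc5 (3493 ± 55.1 FPKM) and Stfa2 (3445 ± 82.4 FPKM) overlapped between libraries at the top. Stfa2l1 came next at 2177 ± 17.7 FPKM, then Cstdc4 at 2052 ± 39.3, Stfa3 at 1136 ± 45.9 and Cstdc6 at 831 ± 8.57, all without overlap. Cstb was at 97.3 ± 5.99 FPKM.

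The order was another one in normal lung. Cstdc4 was highest, at 578 ± 31.3 FPKM (rank 77), followed by Stfa2l1 at 537 ± 17.6 and Cstdc5 at 504 ± 15.9, the last pair overlapping between libraries. Stfa2 stood at 362 ± 25.4 FPKM, Cstdc6 at 141 ± 6.77, Cstb at 116 ± 8.24 and Stfa3 at 96.0 ± 9.77 (rank 747). Stfa3 was thus the lowest of the 6 abundant cluster genes in NL and was below Cstb there, with no overlap between libraries.

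The groups were then compared in CPM, with factors from the trimmed mean of M values (TMM) and a fit of edgeR over all 14108 genes that passed the filter on low counts. A gene was called where its adjusted p was at most 0.05 and its absolute log2 fold change above 0.58. Of the 10 members, 8 passed the filter, and Stfa1 and Cstdc3 did not. Both comparisons with NL use the same 3 NL libraries and are not independent of each other.

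Stfa3, a stefin A copy with no shared stretch in the check above, was at 479, 445 and 498 CPM in the Ly6Ghi libraries, at 489, 517 and 531 CPM in the Ly6Glow libraries and at 27.2, 28.8 and 23.8 CPM in the NL libraries. Every library from metastatic lung was above every NL library, and the Ly6Ghi and Ly6Glow libraries overlapped. For Ly6Ghi over NL it rose by 4.15 on the log2 scale (SE 0.057, edgeR adjusted p = 1.2e-23). For Ly6Glow over NL its log2 fold change was 4.27 (SE 0.058), given without a test since this rise was already known when the genes were chosen. Both other comparisons of Stfa3 share a group of libraries with that one, so that their p-values are not free of this choice.

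Stfa2 was at 1280, 1254 and 1303 CPM in Ly6Ghi, at 1562, 1601 and 1639 CPM in Ly6Glow and at 98.9, 111 and 101 CPM in NL. The 3 groups were separate, Ly6Glow highest and NL lowest. For Ly6Ghi over NL the rise was 3.63 on the log2 scale (SE 0.040, edgeR adjusted p = 4.45e-25) and for Ly6Glow over NL it was 3.95 (SE 0.040, edgeR adjusted p = 1.34e-25).

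Cstdc5, the gene that GENCODE lists as BC100530, was at 1811, 1691 and 1785 CPM in Ly6Ghi, at 1684, 1737 and 1682 CPM in Ly6Glow and at 150, 155 and 148 CPM in NL. Both metastatic groups stood above NL and overlapped each other. On the log2 scale it rose by 3.55 (SE 0.035, edgeR adjusted p = 1.59e-25) in Ly6Ghi over NL and by 3.49 (SE 0.035, edgeR adjusted p = 1.34e-25) in Ly6Glow over NL. Cstdc6, whose transcript is 95.89% identical to that of Cstdc5 over 389 bases, was at 327, 341 and 338 CPM in Ly6Ghi, 351, 346 and 351 CPM in Ly6Glow and 35.1, 37.8 and 36.3 CPM in NL. It rose by 3.20 (SE 0.040) and 3.26 (SE 0.040) on the log2 scale in these comparisons.

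The genes nearest the lower end of the cluster rose less. Stfa2l1 was at 765, 714 and 785 CPM in Ly6Ghi, at 976, 995 and 990 CPM in Ly6Glow and at 153, 152 and 144 CPM in NL. Cstdc4 was at 818, 810 and 818 CPM in Ly6Ghi, at 921, 920 and 950 CPM in Ly6Glow and at 155, 169 and 159 CPM in NL. In CPM the 3 groups were separate for both genes, with NL lowest and Ly6Glow highest, while in FPKM Cstdc4 was lower in Ly6Glow than in Ly6Ghi. The log2 fold changes for Ly6Ghi over NL were 2.33 (SE 0.038) for Stfa2l1 and 2.34 (SE 0.035) for Cstdc4, and for Ly6Glow over NL they were 2.72 (SE 0.038) and 2.53 (SE 0.035). The differences between members in the size of the rise were not tested.

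**Figure D1:**
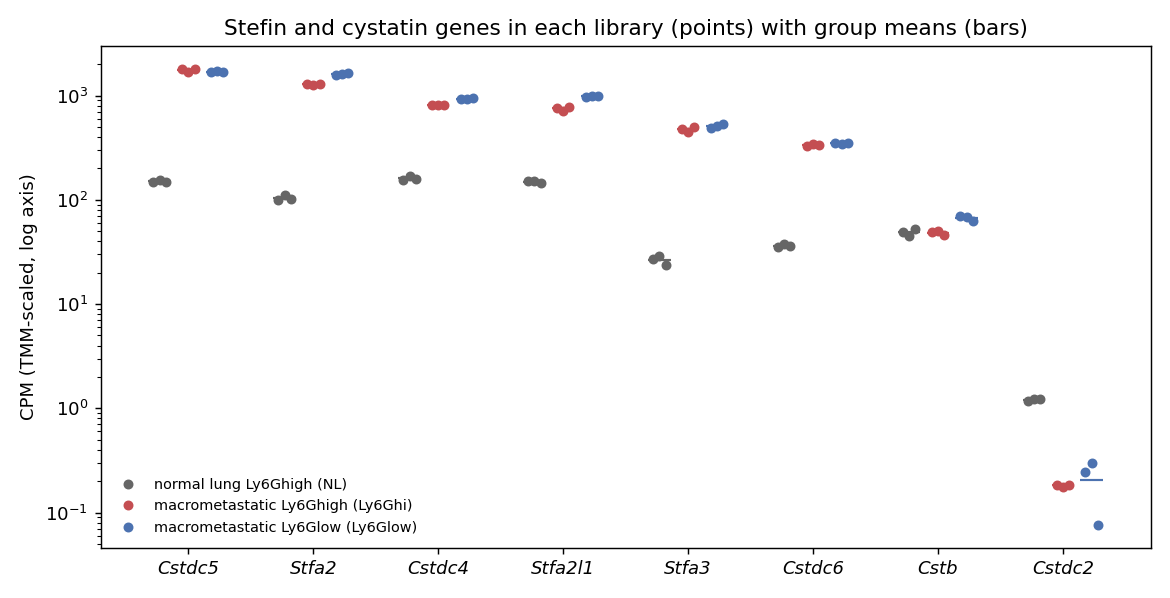
CPM after TMM scaling (log axis) of the 8 members that passed the filter, with 1 point per library and a bar at each group mean of 3 libraries. The 6 cluster genes sit lowest in NL, between 23.8 and 169 CPM, and between 327 and 1811 CPM in the metastatic groups, while Cstb stays between 45.2 and 70.1 CPM and Cstdc2 is highest in NL.

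Since Cstdc2 passed the filter through NL alone and the rise of Stfa3 in Ly6Glow led to the choice of genes, the calls were counted without them. All 5 other cluster genes tested were called higher in Ly6Ghi than in NL, where 26.3% of all genes were called higher and 36.6% lower (62.9% in all). The same 5 were called higher in Ly6Glow than in NL, against 28.7% called higher and 40.8% lower (69.5% in all). In both comparisons these 5 had all their metastatic libraries above all NL libraries, which held for 40.2% (Ly6Ghi) and 39.4% (Ly6Glow) of all genes. Their median log2 fold change was 3.20 for Ly6Ghi over NL and 3.26 for Ly6Glow over NL, against medians of -0.088 and -0.16 over all genes tested. They ranked 30 to 153 and 17 to 127 by size of rise among the 14108 genes. The NL libraries are common to both comparisons and to the value of Stfa3. Without NL replicate 2, the rises of all 6 cluster genes were 2.35 to 4.22 in Ly6Ghi and 2.57 to 4.33 in Ly6Glow.

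The remaining pair of tested members behaved otherwise. Cstb was at 49.1, 50.5 and 45.9 CPM in Ly6Ghi, at 70.1, 68.2 and 62.2 CPM in Ly6Glow and at 48.7, 45.2 and 52.7 CPM in NL. The Ly6Ghi and NL libraries overlapped, and the log2 fold change between them was -0.010 (SE 0.060, edgeR adjusted p = 0.881). The Ly6Glow libraries were above all others, by 0.45 on the log2 scale over NL (SE 0.060, edgeR adjusted p = 3.87e-07), a difference under the fold threshold. On log2(FPKM + 1) the difference from NL was -0.24 in Ly6Glow, the opposite sign, and -0.47 in Ly6Ghi.

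Cstdc2, named for a cystatin domain and not part of the stefin cluster, was near the limit of detection. It had 3, 3 and 3 counts in Ly6Ghi, 3, 4 and 1 in Ly6Glow and 26.0, 27 and 27 in NL. It passed the filter through NL alone, so that it had to differ. Summed over libraries and scaled, NL was 6.61-fold above Ly6Ghi (95% exact interval 3.31 to 15.0) and 5.83-fold above Ly6Glow (2.82 to 14.0), intervals that cover counting error only. All its metastatic libraries were below all NL libraries, as were those of 45% of all genes for Ly6Ghi and 47.5% for Ly6Glow.

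Stfa1 and Cstdc3 were hardly detected by their estimated counts. The promoter strings shown above precede the start of Stfa1 and, in Cstdc3, the second annotated start only. Stfa1 had 17.5, 5.92 and 4.42 estimated counts in Ly6Ghi, 8.34, 7.38 and 10.5 in Ly6Glow and 1.95, 4.33 and 0 in NL. Cstdc3 had at most 1.41 estimated counts in any library. Stfa1 is the gene whose transcript is closest to that of Cstdc5, and how reads were divided between them was not tested.

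Between the metastatic groups the members differed little. By edgeR, 0 of the 8 members were called in Ly6Glow over Ly6Ghi, where 9.29% of all genes were called higher and 15.9% lower (25.2% in all). DESeq2 also called 0. At an unadjusted p under 0.05, 5 members were higher in Ly6Glow and 0 lower. These were Cstb (log2 fold change 0.46, SE 0.062, edgeR adjusted p = 1.34e-06), Stfa2l1 (0.39, SE 0.035, adjusted p = 3.67e-09), Stfa2 (0.32, SE 0.035, adjusted p = 5.13e-08), Cstdc4 (0.19, SE 0.032, adjusted p = 3.08e-05) and Stfa3 (0.11, SE 0.045, adjusted p = 0.0391).

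Cstdc6 differed by 0.058 (SE 0.034, edgeR adjusted p = 0.151) and Cstdc5 by -0.051 (SE 0.031, edgeR adjusted p = 0.173). Of the 6 cluster genes, 4 had all Ly6Glow libraries above all Ly6Ghi libraries, as 29% of all genes did. The signs here depended on the scaling. On log2(FPKM + 1) the differences of Cstdc4, Cstdc6 and Stfa3 were -0.046, -0.18 and -0.12, and with the size factors of DESeq2 that of Cstdc5 was 0.015. No direction is therefore given for these 4 genes, whereas the differences of Stfa2, Stfa2l1 and Cstb were positive on every scaling run, at 0.087, 0.15 and 0.22 on log2(FPKM + 1).

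**Figure D2:**
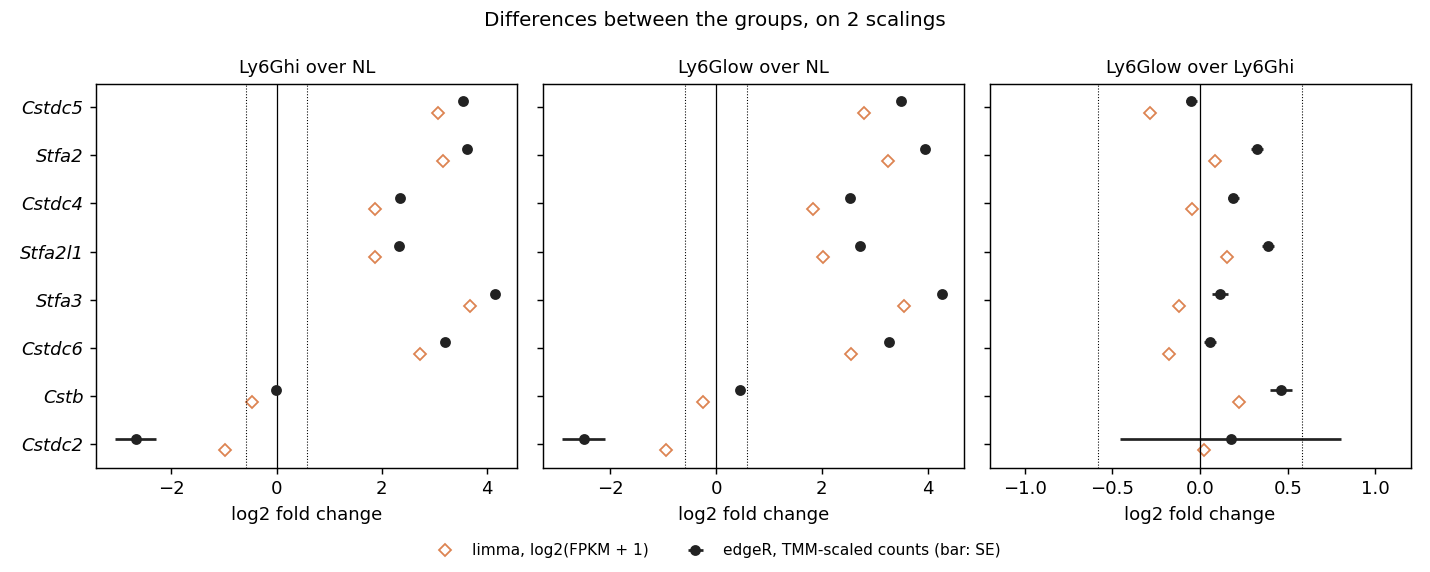
Log2 fold change of the 8 tested members in the 3 comparisons, from edgeR on TMM-scaled counts (filled circles, bar 1 SE) and as the difference of mean log2(FPKM + 1) (open diamonds), with dotted lines at the threshold of 0.58. The 6 cluster genes lie between 1.83 and 4.27 against NL on either scale, while all edgeR values for Ly6Glow over Ly6Ghi lie inside the dotted lines, on a narrower axis.

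The FPKM values follow the total count of each library, whereas TMM factors were 0.945 to 0.950 in Ly6Ghi, 0.803 to 0.807 in Ly6Glow and 1.30 to 1.32 in NL. For Cstb and the 6 cluster genes the edgeR value was above the difference in log2(FPKM + 1) by 0.46 to 0.48 for Ly6Ghi over NL and by 0.70 to 0.71 for Ly6Glow over NL. The median of all genes was -0.32 and -0.49 in these comparisons on log2(FPKM + 1), and -0.51 and -0.81 with a pseudocount of 0.1. On log2(FPKM + 1), Stfa3 differed by 3.68 and 3.56 in these comparisons, Stfa2 by 3.16 and 3.25, Cstdc5 by 3.08 and 2.79, Cstdc6 by 2.73 and 2.55, Stfa2l1 by 1.87 and 2.02 and Cstdc4 by 1.87 and 1.83.

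The cluster as a whole took 0.499 to 0.525% of all counts in the Ly6Ghi libraries, 0.483 to 0.495% in the Ly6Glow libraries and 0.0801 to 0.0863% in the NL libraries. In CPM its sum was 5421 ± 146 in Ly6Ghi, 6081 ± 85.1 in Ly6Glow and 629 ± 21.2 in NL (SD, n = 3), or 8.62- and 9.67-fold the NL level on the TMM scale. The order of the metastatic groups turned with the scaling. Ly6Ghi was above Ly6Glow in the share of counts and below it in CPM, each without overlap between libraries. The sum does not depend on how reads were divided among the 8 cluster genes, although Csta2, outside the sum, shares stretches with Cstdc4. Cstdc5, Stfa2 and Stfa2l1 also share stretches of 50 bases with gene entries that were not matched to any member, so the sum is not free of read sharing.

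The make-up of the cluster also differed between groups. Stfa3 made up 4.23 ± 0.300% of the cluster counts in NL, 8.74 ± 0.268% in Ly6Ghi and 8.42 ± 0.232% in Ly6Glow. Stfa2 made up 16.5 ± 0.489%, 23.6 ± 0.257% and 26.3 ± 0.316%, and Cstdc5 made up 24.0 ± 0.274%, 32.5 ± 0.467% and 28.0 ± 0.529%. The shares of Stfa2l1 (23.8 ± 0.802%, 13.9 ± 0.312% and 16.2 ± 0.103%) and Cstdc4 (25.6 ± 0.503%, 15.0 ± 0.323% and 15.3 ± 0.221%) were larger in NL. For these 5 genes the NL libraries did not overlap with either metastatic group, and Cstdc6 stayed between 5.65 and 6.49% in all 9 libraries. Permuting 3 libraries against 3 gives an exact p of 0.1 at the smallest (two-sided), and the shares are given as a description.

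**Figure D3:**
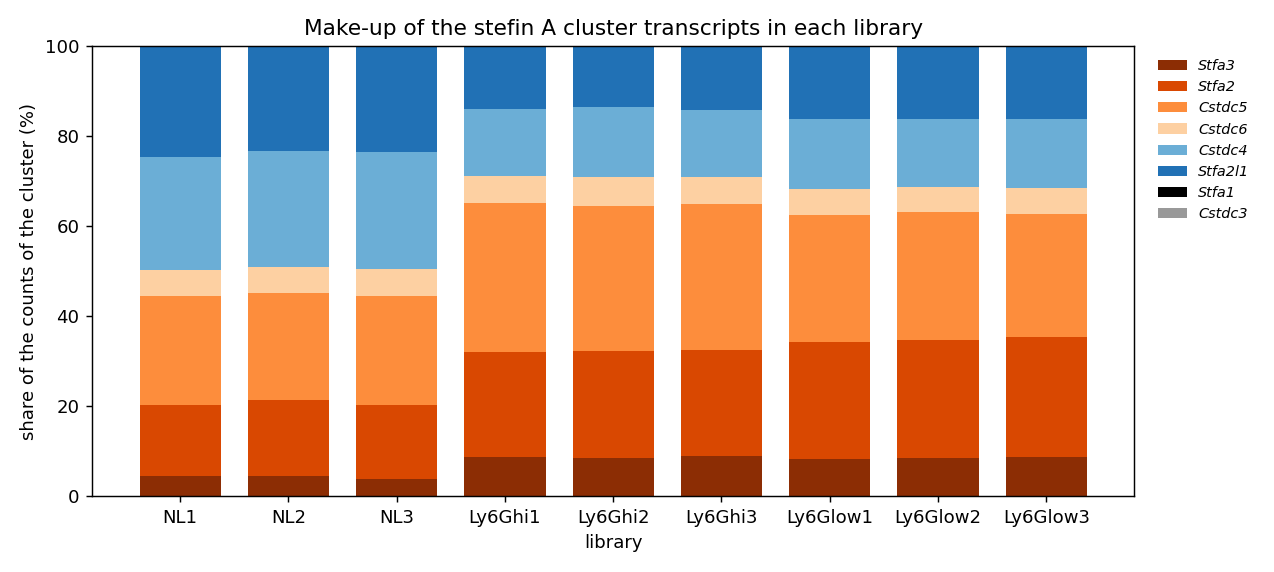
Share of the estimated counts of the stefin A cluster (%) taken by each of its genes in each of the 9 libraries, stacked to 100. Stfa2l1 and Cstdc4, at the top of each bar, take a larger share of every NL bar than of any metastatic bar, while Stfa1 and Cstdc3 are too small to be seen.

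Markers of the sorted cell and of others also differed between the groups. Over all genes, 26.3% were called higher and 36.6% lower in Ly6Ghi than in NL, and 28.7% and 40.8% in Ly6Glow. All 8 neutrophil markers were called higher in each metastatic group than in NL, and their summed level was 68756 to 70556 CPM in Ly6Ghi, 72633 to 74405 CPM in Ly6Glow and 17642 to 17884 CPM in NL. The 7 epithelial or tumor markers summed to 928 to 1030 CPM in NL, 91.2 to 96.2 CPM in Ly6Ghi and 93.7 to 99.3 CPM in Ly6Glow, and 7 and 6 of them were called lower than in NL. The 6 endothelial or fibroblast markers summed to 899 to 979 CPM in NL, 134 to 141 CPM in Ly6Ghi and 162 to 173 CPM in Ly6Glow, and all 6 were called lower in both groups. The 9 macrophage markers summed to 920 to 947, 429 to 442 and 336 to 346 CPM, with 6 called lower in each. No marker of these 4 lists was at 0 in any group. The 10 granule genes of developing neutrophils summed to 6337 to 6623 CPM in NL, 35688 to 36424 CPM in Ly6Ghi and 12876 to 13399 CPM in Ly6Glow. Of these, 9 were called higher in Ly6Ghi than in NL, and 8 higher and 1 lower in Ly6Glow. Elane and Ctsg, at 0.331 and 0.120 CPM in NL, passed the filter through metastatic libraries alone.

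Markers of other blood cells were set beside the same shares over all genes. Of 5 tested markers of eosinophils, basophils and mast cells, 4 were called higher than NL in each metastatic group. Of these, Prg2 and Epx passed the filter through Ly6Ghi alone, so that they had to be higher than NL there. In Ly6Glow the Prg2 libraries overlapped those of NL, and Epx was at 0.128 ± 0.0406 CPM against 0.0152 ± 0.0263 in NL. The 6 markers with values summed to 73.6 to 80.0 CPM in Ly6Ghi, 38.1 to 39.2 CPM in Ly6Glow and 39.0 to 42.0 CPM in NL. Prg2, a granule protein of eosinophils, was at 29.4 ± 1.19 CPM in Ly6Ghi, 0.619 ± 0.451 in Ly6Glow and 0.226 ± 0.0468 in NL, and Mcpt8, a protease of basophils, at 11.7 ± 1.60, 6.79 ± 1.28 and 0.980 ± 0.102 CPM. Of 6 lymphocyte markers, 2 were called higher and 1 lower than NL in Ly6Ghi, and 1 higher and 2 lower in Ly6Glow. These lymphocyte counts were near or below the shares over all genes (26.3% and 36.6% in Ly6Ghi, 28.7% and 40.8% in Ly6Glow). The median sums were 65.1 CPM in Ly6Ghi, 41.1 CPM in Ly6Glow and 47.8 CPM in NL. Both erythroid markers tested, Hba-a1 and Hba-a2, were called lower than NL in each group. They passed the filter through NL alone, so that they had to be lower. All 4 erythroid markers with values summed to 14.1 CPM or less in every library. The part of other cells in the stefin levels was not tested, and in bulk samples fewer neutrophils and less stefin RNA per neutrophil cannot be told apart.

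For this reason the cluster was also set against the neutrophil markers in the same library, a measure added after the levels had been seen. Per 100 counts of the 8 markers there were 7.64 to 7.96 cluster counts in Ly6Ghi, 8.22 to 8.27 in Ly6Glow and 3.48 to 3.65 in NL. Without S100a8 and S100a9, which take most of the marker counts, the other 6 gave 36.5 to 38.8, 28.6 to 29.2 and 10.6 to 11.7. Against single markers the values were 140 to 148, 86.9 to 88.9 and 28.2 to 32.0 for Csf3r, the receptor of G-CSF, and 305 to 326, 219 to 229 and 120 to 123 for the chemokine receptor Cxcr2. Against Itgam, the integrin chain CD11b, they were 183 to 194, 208 to 218 and 64.2 to 70.5.

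In each of these 5 ratios both metastatic groups were above NL without overlap. The ratios use the cluster sum and are not independent, since the single markers are part of the summed ones. S100a8 alone, not used as a denominator, rose by 2.40 on the log2 scale in Ly6Ghi over NL, against 2.33 for Stfa2l1 and 2.34 for Cstdc4. In Ly6Glow over NL it rose by 2.30, against 2.72 and 2.53. The other tested cluster genes rose more than S100a8 in both comparisons. The order of Ly6Ghi and Ly6Glow changed with the marker used. For Cstb the ratio to the 8 markers ran the other way, with 0.0660 to 0.0735 counts per 100 in Ly6Ghi, 0.0838 to 0.0966 in Ly6Glow and 0.253 to 0.299 in NL.

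**Figure D4:**
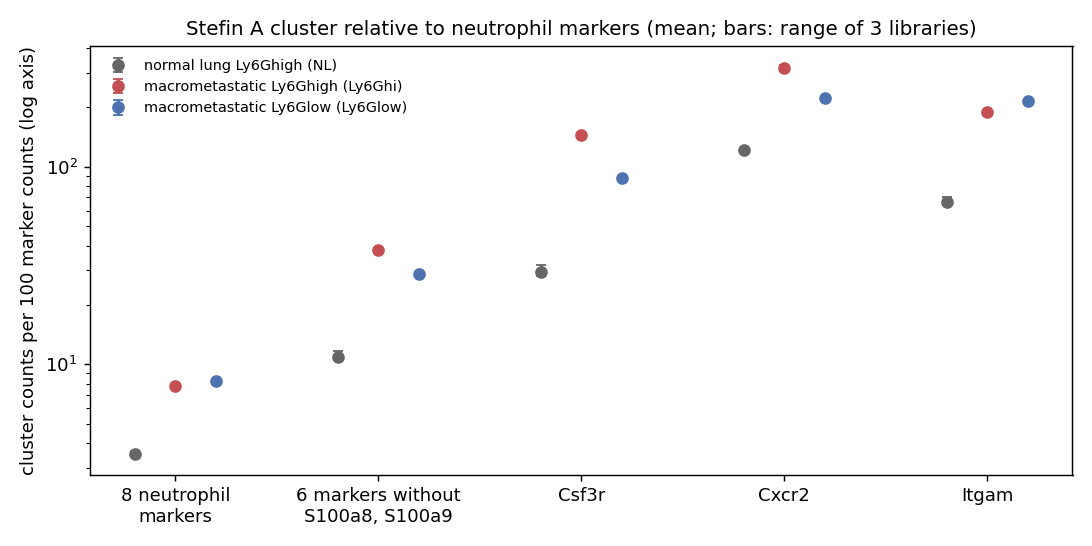
Counts of the stefin A cluster per 100 counts of neutrophil markers (log axis), for the 8 markers summed, for 6 of them and for Csf3r, Cxcr2 and Itgam alone, with the mean of 3 libraries and a bar from the lowest to the highest. NL is lowest for each denominator, and Ly6Glow is above Ly6Ghi only for the 8 markers and for Itgam.

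Most of the proteases that cystatins bind were lower than in NL or were not called. Of the 11 cysteine cathepsins, a list that includes legumain, edgeR called 6 lower and 0 higher in Ly6Ghi than in NL, with 0 higher at an unadjusted p under 0.05 and 0 by DESeq2. Over all genes 36.6% were called lower there. The median log2 fold change was -1.03. In Ly6Glow over NL, 7 were called lower and 1 higher, against 40.8% and 28.7% of all genes, with a median of -1.23. Their summed level was 2563 to 2583 CPM in NL, 1814 to 1840 CPM in Ly6Ghi and 2097 to 2146 CPM in Ly6Glow. The macrophage markers and the endothelial or fibroblast markers also summed to less in both metastatic groups than in NL. The part of other cells in the cathepsin levels, and in those of the inhibitors below, was not tested.

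Ctsb, an endopeptidase of lysosomes, was at 817 ± 25.9 CPM in NL, 823 ± 7.64 CPM in Ly6Ghi and 1223 ± 27.4 CPM in Ly6Glow. It was the gene called higher in Ly6Glow over NL (log2 fold change 0.58, SE 0.031, edgeR adjusted p = 7.93e-14), just past the threshold, and the call was lost (0 cathepsins higher) without Ly6Glow replicate 2 or NL replicate 2. Ctsl, another lysosomal endopeptidase, was at 194 ± 5.36, 140 ± 1.62 and 196 ± 4.39 CPM in NL, Ly6Ghi and Ly6Glow.

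Ctss, which trims the invariant chain of MHC class II, fell by 1.35 (SE 0.035) in Ly6Ghi and fell by 2.05 (SE 0.037) in Ly6Glow on the log2 scale, from 646 ± 25.0 CPM in NL. Ctsk and Ctsf fell most in both comparisons with NL. Ctsk, known for degrading collagen in bone, went from 104 ± 3.66 CPM in NL to 15.4 ± 0.732 in Ly6Ghi and 2.63 ± 0.212 in Ly6Glow, and Ctsf from 10.3 ± 0.925 to 1.87 ± 0.143 and 0.519 ± 0.251 CPM. Ctsc, which activates the serine proteases of neutrophil granules, differed by -0.20 and -0.48 from NL and was not called. Ctsh, an aminopeptidase, differed by -0.18 in Ly6Ghi and fell by 0.77 in Ly6Glow.

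In Ly6Glow over Ly6Ghi, edgeR called 5 of the 11 lower and 0 higher (median -0.43), where 15.9% of all genes were called lower. At an unadjusted p under 0.05, 3 were higher, among them Ctsb at 0.57 and Ctsl at 0.48, and DESeq2 called 1 higher, as did edgeR without Ly6Glow replicate 3. Ctsk fell by 2.54 and Ctsf fell by 1.84 on the log2 scale between these groups.

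Of 18 other cystatins, 11 had values and 4 passed the filter. Csta2, a stefin A copy inside the same stretch of chromosome 16, rose from 14.9 ± 1.15 CPM in NL to 43.8 ± 0.493 in Ly6Ghi and 81.4 ± 1.59 in Ly6Glow. It was called higher in all 3 comparisons, with log2 fold changes of 1.55 (SE 0.060) and 2.45 (SE 0.057) over NL and 0.89 (SE 0.051) for Ly6Glow over Ly6Ghi. Csta3, its neighbour, was likewise called in all 3, from 1.66 ± 0.152 CPM in NL to 5.55 ± 0.633 and 8.78 ± 1.32 CPM. Csta2 shares stretches of 50 bases with Cstdc4.

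Cst7, which makes cystatin F, an inhibitor of cathepsin C in immune cells, was at 1.28 ± 0.0599 CPM in NL, 3.21 ± 0.396 in Ly6Ghi and 2.49 ± 0.519 in Ly6Glow, and was called higher in both comparisons with NL. Cst3, the secreted cystatin C, was at 255 ± 17.5, 218 ± 8.21 and 213 ± 9.08 CPM and was not called. None of the 4 was called lower by edgeR or DESeq2 in any comparison. At an unadjusted p under 0.05, 1 was lower in each comparison with NL, and 0 in Ly6Glow over Ly6Ghi. The counts of higher cystatins were 3 of 4 in each comparison with NL and 2 of 4 in Ly6Glow over Ly6Ghi, against 26.3%, 28.7% and 9.29% of all genes. The last count was 1 without Ly6Ghi replicate 3 or Ly6Glow replicate 1.

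Of 8 tested inhibitors of other proteases inside the cell, clade B serpins and calpastatin, 4 were called higher and 3 lower in Ly6Ghi than in NL, and 3 higher and 3 lower in Ly6Glow. The shares over all genes were 26.3% and 36.6% in Ly6Ghi and 28.7% and 40.8% in Ly6Glow, so that the counts of 3 of 8 were near the background. Serpinb1a, which inhibits neutrophil elastase and related enzymes, rose by 3.23 (SE 0.037) in Ly6Ghi and 1.85 (SE 0.038) in Ly6Glow on the log2 scale and was called lower in Ly6Glow than in Ly6Ghi. Serpinb10 rose by 1.34 and 1.27. Serpinb9, the inhibitor of granzyme B, fell by 2.67 in Ly6Ghi and fell by 2.79 in Ly6Glow, and Serpinb6b fell by 2.23 and fell by 3.08. In Ly6Glow over Ly6Ghi, 4 of the 8 were called lower, Serpinb1a by -1.38 and Serpinb2 by -0.90 in the lead, and 0 higher, with 0 higher at an unadjusted p under 0.05 and 0 by DESeq2. Over all genes 15.9% were called lower and 9.29% higher there, and DESeq2 called 3 of the 8 lower.

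Genes beside the cluster were looked at after the values had been seen. Of the 5 tested genes on the lower side, Kpna1, Wdr5b and Fam162a were called higher in Ly6Ghi than in NL, by 0.63, 1.85 and 1.35. Parp9 (-0.29) and Ccdc58 (-0.083) were not called. On the upper side Cd86, Ildr1 and Slc15a2 were called lower, by -0.62, -1.59 and -2.09, and Eaf2 (0.21) and Iqcb1 (-0.55) were not called. None of these 10 neighbours reached the rise of the least changed tested member of the cluster, 2.33, in that comparison. Csta2 and Csta3, inside the same stretch but outside the naming rule, rose by 1.55 and 1.74 there, less than Wdr5b. In Ly6Glow over NL, Fam162a rose by 2.49, close to the least changed tested member of the cluster, Cstdc4 at 2.53. It was above Csta2 at 2.45 and Csta3 at 2.40 in that comparison.

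The genes most like each member were found by the root mean square difference of log2 CPM, centred over the 9 libraries, which describes 3 groups more than 9 independent points. Cstdc6 was nearest to Gsdme, at 0.025, and next to Ceacam10 at 0.14 and Cstdc5 at 0.15. Cstdc5 was nearest to Ifitm6 (0.11), Stfa2 to Gpr15 (0.10) and Stfa3 to Ggt1 (0.13). Gpr15, Ceacam10 and other cluster genes recurred in these lists of 5.

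Stfa2l1 was nearest to Sephs2 (0.051) and Cstdc4 to Asnsd1 (0.072), and these 2 members were 0.10 apart, with Eps8 and Sertad3 in both lists. No cluster gene was among the 5 nearest to Cstb, where Pip5k1c led at 0.041, or to Cstdc2, where Large2 led at 0.12.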

How the data were processed

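RNA of sorted neutrophils was measured by bulk RNA-seq in 9 libraries, 3 per group, from poly(A)-selected, strand-specific paired-end libraries. The authors deposited an estimated count per gene and library, not normalized, and an FPKM value scaled for transcript length and library total. The aligner and the counter are not given in the sources used here, and the build in the submitters' processing notes is mm10. The members and lists were chosen with earlier results of these data known. Of 22064 rows, 18325 had values. Estimated counts were rounded and fitted in edgeR 4.0.16 (R 4.3.3) with TMM, filterByExpr by group, quasi-likelihood tests over all 9 libraries and Benjamini-Hochberg adjustment over 14108 genes. The common biological coefficient of variation was 0.0346. Calls needed an adjusted p no higher than 0.05 together with a log2 fold change past 0.58 in size. Alternatives used DESeq2 1.42.0, limma 3.58.1 on log2(FPKM + 1) and the settings in the closing section. The fit was tested on simulated data, in which far fewer genes differed than were called here. That test therefore does not probe how the scaling acts on these libraries. Named genes were all members, Ctsb, Ctsl, Ctss, Ctsh and Ctsc, the 2 largest rises and falls of each gene list among called genes whose libraries did not overlap (marker lists by counts alone), and the 5 genes nearest to each tested member. Promoter windows came from RefSeq (GRCm38.p6) and transcripts from GENCODE. The labels do not tie libraries to single mice, so that p-values measure the spread between these libraries, which may be technical. Depth was 15267177 to 17841807 counts per library.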

Additional observations from a re-analysis of the deposited data

How the results depend on the processing

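The rises of the 6 cluster genes in Ly6Ghi over NL, and of the 5 other than Stfa3 in Ly6Glow over NL, kept their direction and call under every alternative run. Cstdc2, whose lower level is fixed by the filter, was not fitted with at least 10 counts in every library. Stfa3 in Ly6Glow over NL, which has no test, moved from 4.27 to 4.08 with upper-quartile normalization and with at least 10 counts in every library (also 4.08), and to 3.56, 3.57 and 3.56 by limma on log2(FPKM + 1), on log2(FPKM + 0.1) and with FPKM of at least 1 in 3 libraries. With no fold threshold, Cstb (0.46), Stfa2l1 (0.39), Stfa2 (0.32), Cstdc4 (0.19) and Stfa3 (0.11) passed in Ly6Glow over Ly6Ghi, and Cstb (0.45) in Ly6Glow over NL. Signs turned for Cstdc5 in Ly6Glow over Ly6Ghi (0.015 with DESeq2 size factors and 0.015 in DESeq2), for Cstb in Ly6Ghi over NL (0.014 in each of these, 0.011 with no filter) and, in the 3 FPKM fits, for Cstdc4 (-0.046), Cstdc6 (-0.18) and Stfa3 (-0.12) in Ly6Glow over Ly6Ghi and Cstb in Ly6Glow over NL (-0.24, and -0.25 with a pseudocount of 0.1). Leaving out each library in turn gave -0.058 to 0.050 for Cstb in Ly6Ghi over NL and -0.21 to 0.56 for Cstdc2 in Ly6Glow over Ly6Ghi, the lowest without Ly6Glow replicate 2. List counts also moved. With no fold threshold 3 cathepsins were higher in Ly6Glow over Ly6Ghi, 10 were lower in Ly6Ghi over NL, and 1 other cystatin was lower in each comparison with NL. With a threshold of 1, Ly6Glow over Ly6Ghi had 2 cathepsins lower, 0 other cystatins higher and 1 intracellular inhibitor lower, Ly6Ghi over NL had 2 inhibitors higher and Ly6Glow over NL had 0 cathepsins higher. With DESeq2 or its size factors, 1 cathepsin was higher and 3 were lower in Ly6Glow over Ly6Ghi. The 1 cathepsin higher in Ly6Glow over NL, Ctsb, became 0 with upper-quartile normalization, with at least 10 counts in every library, in the 3 FPKM fits and without Ly6Glow replicate 2 or NL replicate 2. In the 3 FPKM fits 1 other cystatin was higher in Ly6Glow over Ly6Ghi, 10 cathepsins were lower, 1 other cystatin lower and 2 inhibitors higher in Ly6Ghi over NL, and 1 other cystatin was lower and 1 inhibitor higher in Ly6Glow over NL. With a pseudocount of 0.1, 1 other cystatin was lower in Ly6Glow over Ly6Ghi and 5 inhibitors were lower in Ly6Glow over NL. Leaving out each library gave 1 to 2 other cystatins higher in Ly6Glow over Ly6Ghi (1 without Ly6Ghi replicate 3 or Ly6Glow replicate 1), 0 to 1 cathepsins higher there (1 without Ly6Glow replicate 3) and 0 to 1 in Ly6Glow over NL. The cause of these changes was not tested, other than that fold thresholds act by construction. On log2(FPKM + 1), 10.1% of all genes were called higher and 36.4% lower in Ly6Ghi over NL, 7.97% and 45.6% in Ly6Glow over NL and 2.27% and 13.6% in Ly6Glow over Ly6Ghi, and with upper-quartile normalization 19.6% and 40.8%, 22.6% and 44.6%, and 9.36% and 15.9%.

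Deviations of same-numbered libraries correlated at -0.068 to 0.077, and 1 of 9 libraries correlated best with its own number. The spread within Ly6Ghi and Ly6Glow was small, with a chi-square per gene of 1.39 to 2.41. This check therefore cannot exclude that libraries were paired, and the labels do not settle it. With the replicate block, calls over all genes went from 3712 higher and 5162 lower to 3706 and 5150 in Ly6Ghi over NL, from 4049 and 5760 to 4037 and 5738 in Ly6Glow over NL and from 1310 and 2250 to 1294 and 2228 in Ly6Glow over Ly6Ghi. The block changed no call of a member.

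Depth limits Cstdc2, Stfa1 and Cstdc3, whose counts per library are few. Shared sequence limits the division of counts among the other cluster genes. NL replicate 2 stood apart from the other NL libraries, and leaving it out ended the call of Ctsb in Ly6Glow over NL and no call of a member.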
